A study of Mus musculus with 24 samples.

Results

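The adenylyl cyclases and the subunits of Golf are the enzymes and G proteins that turn dopamine and adenosine receptor signals into cyclic AMP in the striatum, and 10 of their genes were followed here through 4 groups of mice. They were taken by name from the 24340 genes that the 6 deposited tables share: the cyclases Adcy1, Adcy2, Adcy3, Adcy5, Adcy6, Adcy8 and Adcy9, the G protein alpha subunits Gnal and Gnas, and the gamma subunit Gng7. All 10 were found, and all 10 passed the filter on low values in each comparison.

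RNA was sequenced from the striatum of 24 male mice. The WT-vehicle group had 5 libraries, the R6/1-vehicle group 6, the WT-RGFP109 group 6 and the R6/1-RGFP109 group 7, sequenced in pools that each held all 4 groups. R6/1 mice are a model of Huntington's disease: they are hemizygous for a transgene with exon 1 of human HTT and an expanded CAG repeat, on a C57BL/6J background, and the wild types (WT) were their littermates. RGFP109, an inhibitor of the histone deacetylases HDAC1 and HDAC3, was given intraperitoneally at 30 mg/kg, 5 times per week over 3 weeks, to mice aged 11 to 14 weeks at the first dose and 14 to 17 weeks at the end. The vehicle groups received the same volume of the solvent, dimethyl sulfoxide in saline, so that every mouse was injected, and tissue was taken 18 h after the last dose. The model expresses a fragment of the human protein beside the intact mouse gene, and only the striatum of 1 hemisphere was used.

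Striatal projection neurons sense dopamine and adenosine through receptors that act on adenylyl cyclase, the enzyme that makes cyclic AMP from ATP. In most tissues the stimulating G protein is Gs, whose alpha subunit is encoded by Gnas. In these neurons the related Golf, with the alpha subunit encoded by Gnal, couples the dopamine D1 receptor and the adenosine receptor Adora2a to the cyclase Adcy5, and the gamma subunit Gng7 is needed for a stable Golf complex.

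Levels are given as FPKM, the number of fragments divided by transcript length and by mapped fragments, a unit in which genes can be compared per length. Here the group values were also normalized within each pair of groups. Each table holds 1 FPKM value per group and no value per mouse, so that no spread between mice, no interval and no test can be given for any value, and a difference below is a difference between 2 group values. Each group stands in 3 tables, which were scaled separately. A group's values differed between them by a common factor of 1.00 to 1.04, and levels are means over the 3 tables.

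Projection neurons, the principal cells of the striatum, were represented by all 10 markers listed for them here. The 10 markers were present in every group, from 32.9 FPKM for Bcl11b to 1137 FPKM for Ppp1r1b in WT-vehicle. Other cell types were in the tissue too, with summed FPKM in WT-vehicle of 462 for 8 markers of neocortical excitatory neurons, 4318 for 5 of oligodendrocytes, 456 for 5 of astrocytes, 105 for 5 of microglia and 1471 for 7 of the choroid plexus.

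In WT-vehicle striatum the 10 genes spanned a wide range of levels. Gnas led with 751 FPKM, at rank 36 of the 16636 genes above 0.1 FPKM, and was followed by Gng7 with 339 FPKM at rank 135. Adcy5 was the leading cyclase with 218 FPKM at rank 282, above Gnal with 129 FPKM at rank 577. The other cyclases lay well below, with 45.5 FPKM for Adcy1, 32.2 for Adcy2, 21.5 for Adcy3, 15.7 for Adcy9, 9.13 for Adcy6 and 3.56 for Adcy8. The order was identical in WT-RGFP109. In both R6/1 groups Gnal stood above Adcy5, and in R6/1-vehicle Adcy2, at 26.4 FPKM, stood above Adcy1, at 25.2 FPKM. Without values per mouse it cannot be said which neighbours in this order differ beyond their spread.

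**Figure D1:**
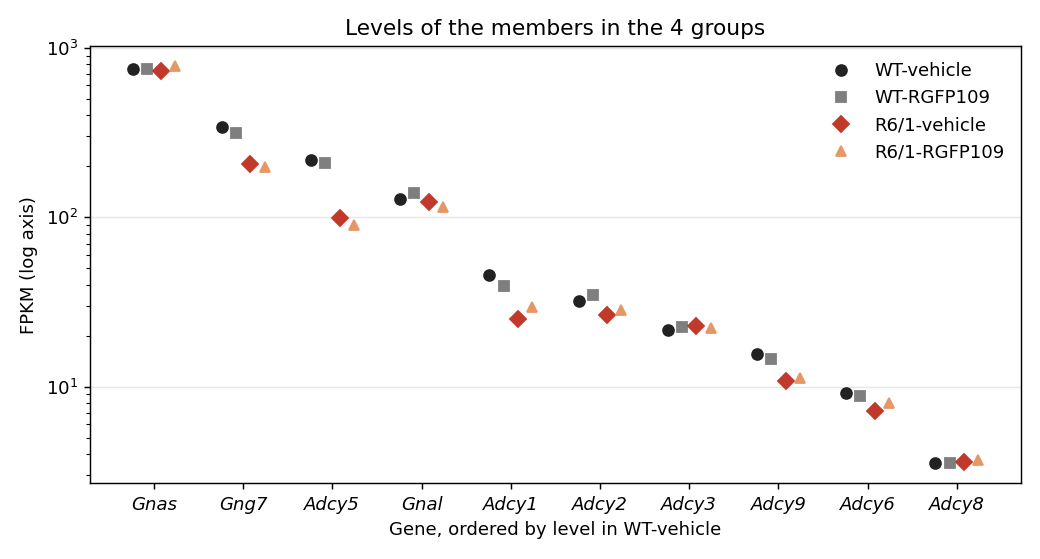
FPKM of each gene (log axis) in the 4 groups, as the mean over the 3 tables that hold the group, with no error bars because the tables hold 1 value per group. Adcy5 was at 218 and 208 FPKM in the WT groups and at 98.8 and 90.3 FPKM in the R6/1 groups, while the points of Gnas, Adcy3 and Adcy8 lie close together.

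The first comparison asked how the R6/1 genotype differed from WT in vehicle-treated mice. Of the 10 genes, 4 were lower in R6/1-vehicle past an absolute log2 ratio of 0.5, namely Adcy5, Adcy1, Gng7 and Adcy9, and none was higher past it. Among all 16972 genes compared, 13.4% were lower and 5.84% were higher past the same ratio, which is the limit used below. The share depended on level: it was 9.04% of the 7591 genes with a mean of at least 10 FPKM, which include Adcy5, Adcy1, Gng7 and Adcy9, and 16.6% of the 763 genes with at least 100 FPKM. The median log2 ratio was -0.35 over the 10 genes and -0.02 over all genes.

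Adcy5, which receptors coupled to Gi inhibit, makes most of the striatal cyclic AMP that depends on dopamine. Its level was 218 FPKM in WT-vehicle and 208 in WT-RGFP109, and 98.8 in R6/1-vehicle and 90.3 in R6/1-RGFP109, so that both R6/1 groups were low. Within the table of the vehicle groups, and tables of a pair are the source of every ratio below, its FPKM was 221 in WT and 97.6 in R6/1, a ratio of 0.442 and a log2 ratio of -1.18. Of all genes compared, 526 had a lower log2 ratio than Adcy5, and among the genes with a mean of at least 10 FPKM 129 did. Adcy5 was thus the gene of the 10 with the lowest ratio.

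Gng7 followed the same course as Adcy5 with a smaller difference. Its level was 339 FPKM in WT-vehicle and 316 in WT-RGFP109, and 207 in R6/1-vehicle and 199 in R6/1-RGFP109. The log2 ratio of the vehicle groups was -0.74, and 1313 of the genes compared lay lower.

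Adcy1, a cyclase stimulated by calcium and calmodulin that is prominent in cortex and hippocampus, was at 45.5 FPKM in WT-vehicle and 39.2 in WT-RGFP109, and at 25.2 in R6/1-vehicle and 29.5 in R6/1-RGFP109. Its log2 ratio between the vehicle groups was -0.88, and 966 genes lay lower. Adcy9, a widely expressed cyclase that is little affected by forskolin, was at 15.7, 14.6, 10.9 and 11.2 FPKM in these groups, in that order. Of the 4 genes past the limit its log2 ratio, -0.56, was the nearest to it, and 1963 genes lay lower.

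**Figure D2:**
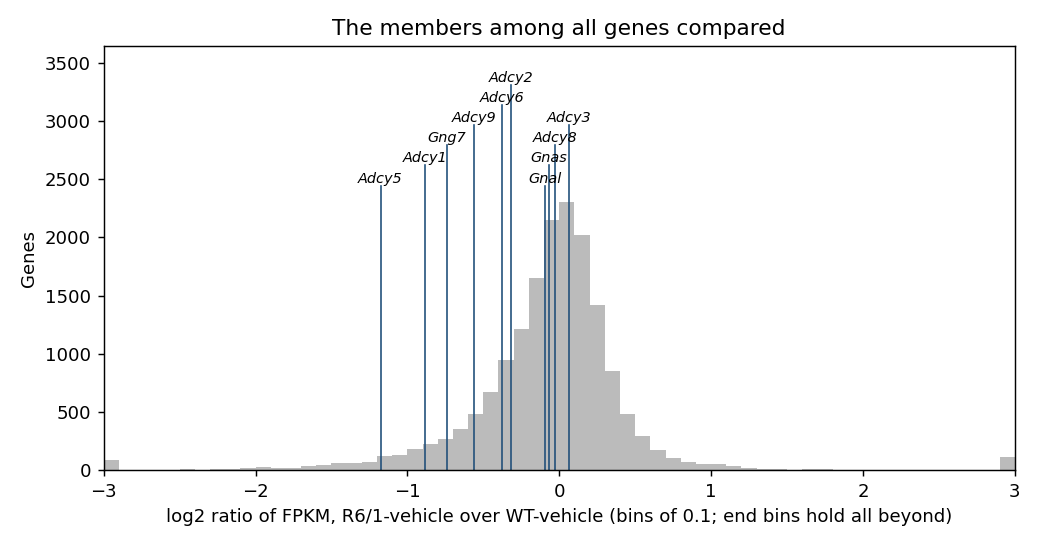
Histogram of the log2 ratio of FPKM, R6/1-vehicle over WT-vehicle, for the 16972 genes compared (y axis: genes per bin of 0.1; the 196 genes beyond an absolute value of 3 are in the end bins), with a vertical line for each of the 10 genes, whose heights carry no value. Adcy5 at -1.18, Adcy1 at -0.88, Gng7 at -0.74 and Adcy9 at -0.56 lie in the lower tail, and Gnal at -0.10, Gnas at -0.07, Adcy8 at -0.03 and Adcy3 at 0.06 lie in the central peak.

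The other 6 genes lay within the limit. Adcy6, the closest relative of Adcy5, was the nearest to it of these, with 9.23 FPKM in WT-vehicle and 7.10 in R6/1-vehicle and a log2 ratio of -0.38. Adcy2, which G beta and gamma subunits stimulate together with an active alpha subunit, had a log2 ratio of -0.32 at 32.5 and 26.1 FPKM. Adcy3, known from olfactory neurons and primary cilia, was at 21.7 and 22.7 FPKM with a log2 ratio of 0.06. Adcy8, like Adcy1 a cyclase stimulated by calcium, was at 3.59 and 3.53 FPKM with a log2 ratio of -0.03, in contrast to the ratio of -0.88 for Adcy1.

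In the vehicle groups the alpha subunits differed little by genotype, whereas under RGFP109, described below, Gnal had a log2 ratio of -0.32. Gnal, which encodes the alpha subunit of Golf, was at 130 FPKM in WT-vehicle and 122 in R6/1-vehicle, a log2 ratio of -0.10, and 6832 of the genes compared lay lower. Gnas was at 759 and 723 FPKM, a log2 ratio of -0.07. The other components of the Golf pathway, Gng7 and Adcy5, had log2 ratios of -0.74 and -1.18, so that the ratio of Gng7 to Gnal FPKM was 2.63 in WT-vehicle and 1.69 in R6/1-vehicle. The ratio of Adcy5 to Gnal FPKM was 1.70 in WT-vehicle and 0.803 in R6/1-vehicle.

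The tables place Adcy5 on chromosome 16 at 35155636 to 35304549, Gng7 on chromosome 10 at 80948624 to 81014925, Adcy1 on chromosome 11 at 7063489 to 7178505 and Adcy9 on chromosome 16 at 4284886 to 4420498, all on mm10. No other gene of the tables shared these intervals. The promoters of these 4 genes are shown because they are the ones that were lower in R6/1-vehicle past the limit. Each is the run of 250 bases before the start of a RefSeq transcript on GRCm38.p6, the assembly that mm10 represents, taken at the window nearest to the start of the deposited locus. RefSeq has other transcripts of Adcy5 and Adcy9 that begin farther upstream. The windows are written 5′ to 3′ on the strand of the gene. Capitals mark the GC box, GGGCGG or its reverse complement CCGCCC, searched on both strands.
Adcy5 (chr16:35154614-35154863, plus strand): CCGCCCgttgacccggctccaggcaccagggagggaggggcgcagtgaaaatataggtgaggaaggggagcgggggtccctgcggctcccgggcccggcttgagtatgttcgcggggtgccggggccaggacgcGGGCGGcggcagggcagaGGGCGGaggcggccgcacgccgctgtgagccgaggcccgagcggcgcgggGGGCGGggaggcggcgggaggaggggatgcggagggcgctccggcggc
Gng7 (chr10:81014926-81015175, minus strand): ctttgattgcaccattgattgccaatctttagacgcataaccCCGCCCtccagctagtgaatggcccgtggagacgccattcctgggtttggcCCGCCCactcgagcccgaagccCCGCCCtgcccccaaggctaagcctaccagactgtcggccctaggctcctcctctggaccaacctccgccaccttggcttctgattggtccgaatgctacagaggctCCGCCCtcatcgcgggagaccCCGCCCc
Adcy1 (chr11:7063183-7063432, plus strand): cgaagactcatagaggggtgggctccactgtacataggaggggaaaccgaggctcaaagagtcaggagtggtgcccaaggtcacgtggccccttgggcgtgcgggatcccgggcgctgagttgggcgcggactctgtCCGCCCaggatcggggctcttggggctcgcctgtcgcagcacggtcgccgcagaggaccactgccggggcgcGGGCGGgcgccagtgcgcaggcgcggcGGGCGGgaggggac
Adcy9 (chr16:4420499-4420748, minus strand): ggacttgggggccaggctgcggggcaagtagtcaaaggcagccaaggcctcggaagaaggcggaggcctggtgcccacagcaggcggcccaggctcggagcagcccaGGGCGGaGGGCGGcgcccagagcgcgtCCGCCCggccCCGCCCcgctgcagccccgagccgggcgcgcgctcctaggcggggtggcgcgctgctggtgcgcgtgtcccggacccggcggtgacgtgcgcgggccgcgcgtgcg

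The windows printed held 4 GC boxes for Adcy5, 5 for Gng7, 3 for Adcy1 and 4 for Adcy9. At least 1 such box was found in 32.7% of the 32851 RefSeq promoter windows of the same length. The GC content was 78% for Adcy5, 62.8% for Gng7, 71.2% for Adcy1 and 78.8% for Adcy9, against a median of 52.4% over all windows. Gng7 has another window, at chr10:81001366-81001615, which held 0 GC boxes at a GC content of 57.2%. Among the genes within the limit, the window of Adcy2 held 2 GC boxes at a GC content of 73.2%, the windows of Adcy3 held 1 at 68.8% and 0 at 56%, and the 4 windows of Gnas held 0 to 2 at 61.6% to 80%. The full cyclic AMP response element TGACGTCA, found in 1.55% of all windows, was in none of the windows of these genes. Transcript start and deposited locus did not always coincide, since the locus of Adcy5 began 772 bases and that of Adcy1 began 56 bases downstream of the start next to the printed window. Adcy6, Adcy8 and Gnal had no window.

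Some of the remaining genes share their deposited locus with others. The locus of Adcy3 on chromosome 12, at 4133397 to 4240123, also held Cenpo and Ptrhd1, at 1.89 and 3.56 FPKM in WT-vehicle. That of Gnal on chromosome 18, at 67088298 to 67245830, also held Chmp1b and Mppe1, at 9.88 and 11.2 FPKM. The locus of Gnas on chromosome 2, at 174281237 to 174346742, also held the antisense gene Nespas. Nespas was listed at 0.0291 to 0.0510 FPKM in the 4 groups, and reads of a gene and of its antisense partner cannot be told apart unless the counting used strand, which is not given in the sources used here. Gnas is also an imprinted locus with several start sites, which a value per gene sums.

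Summed over all 10 adenylyl cyclase genes of the tables, FPKM was 348 in WT-vehicle and 334 in WT-RGFP109, and 197 in R6/1-vehicle and 195 in R6/1-RGFP109. Adcy5 made up 62.7% of the sum in WT-vehicle and 62.2% in WT-RGFP109, against 50.1% in R6/1-vehicle and 46.2% in R6/1-RGFP109. The share of Adcy2 was 9.25% in WT-vehicle and 13.4% in R6/1-vehicle, and that of Adcy3 was 6.18% and 11.7%. Adcy1 took 13.1% in WT-vehicle and 12.8% in R6/1-vehicle, nearly the same share, as its level and the sum were both lower. The ratio of Adcy5 to Adcy6 FPKM was 23.9 in WT-vehicle and 13.7 in R6/1-vehicle.

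**Figure D3:**
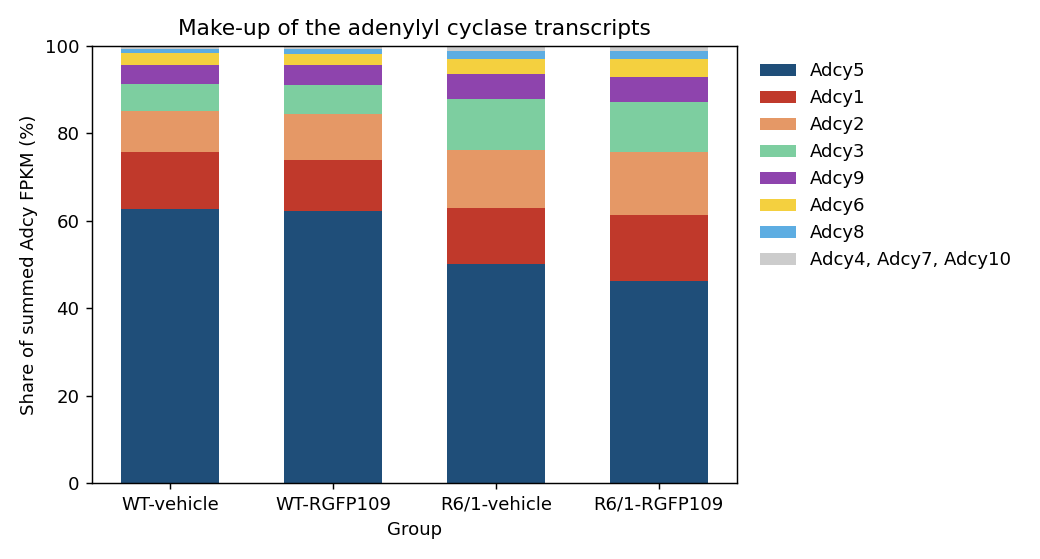
Share (%) of each gene in the summed FPKM of the 10 adenylyl cyclases, 1 stacked bar per group, with Adcy4, Adcy7 and Adcy10 drawn together. Adcy5 took 62.7% and 62.2% in the WT groups and 50.1% and 46.2% in the R6/1 groups, and the bands of Adcy2 and Adcy3 are wider in the R6/1 groups.

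The second comparison set the genotypes against each other under RGFP109. Here 2 of the 10 genes were lower in R6/1 past the limit, Adcy5 with a log2 ratio of -1.24 and Gng7 with -0.70, and none was higher past it. Among all 16954 genes compared, 11.7% were lower and 5.39% were higher past the limit. Adcy5 was at 211 FPKM in WT-RGFP109 and 89.4 in R6/1-RGFP109, and Gng7 was at 320 and 198 FPKM. Adcy1 and Adcy9, past the limit under vehicle, had log2 ratios of -0.44 and -0.41 and were within it. Adcy2 had a log2 ratio of -0.34, Adcy6 of -0.16, Adcy3 of -0.06, Adcy8 of 0.03 and Gnas of 0.02. Gnal, at 142 FPKM in WT-RGFP109 and 113 in R6/1-RGFP109, had a log2 ratio of -0.32. The median was -0.33 over the 10 genes and 0.00 over all genes.

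The third comparison set R6/1 mice given RGFP109 against those given vehicle. None of the 10 genes differed past the limit between R6/1-RGFP109 and R6/1-vehicle, where 5.77% of all 16840 genes did in either direction. Adcy5 was at 101 FPKM in R6/1-vehicle and 92.1 in R6/1-RGFP109, a log2 ratio of -0.13, and Gng7 was at 212 and 203 FPKM, a log2 ratio of -0.06. Of all genes, 2365 lay lower than Adcy5 and 4295 lower than Gng7. Both values lay farther from WT-vehicle with the inhibitor than without it. Against the WT group of the same treatment, Adcy5 was at -1.24 with the inhibitor and -1.18 without. Gng7 was there at -0.70 and -0.74, so nearer to WT with it. Adcy1 was at 25.8 and 30.1 FPKM, a log2 ratio of 0.22, which was the highest of the 10 genes and pointed toward WT, and 1191 of all genes lay higher. Adcy6 had a log2 ratio of 0.16, Adcy2 and Gnas of 0.09, Adcy8 and Adcy9 of 0.04, Adcy3 of -0.05 and Gnal of -0.11. The median was 0.04 over the 10 genes and 0.00 over all genes.

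In WT mice none of the 10 genes differed past the limit between RGFP109 and vehicle, against 8.11% of all 16957 genes in either direction. The log2 ratios of WT-RGFP109 over WT-vehicle ran from -0.22 for Adcy1 to 0.12 for Gnal, with -0.07 for Adcy5, -0.10 for Gng7, -0.11 for Adcy9 and 0.01 for Gnas. Adcy1 was at 44.4 FPKM in WT-vehicle and 38.2 in WT-RGFP109. The median was -0.03 over the 10 genes and -0.01 over all genes.

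**Figure D4:**
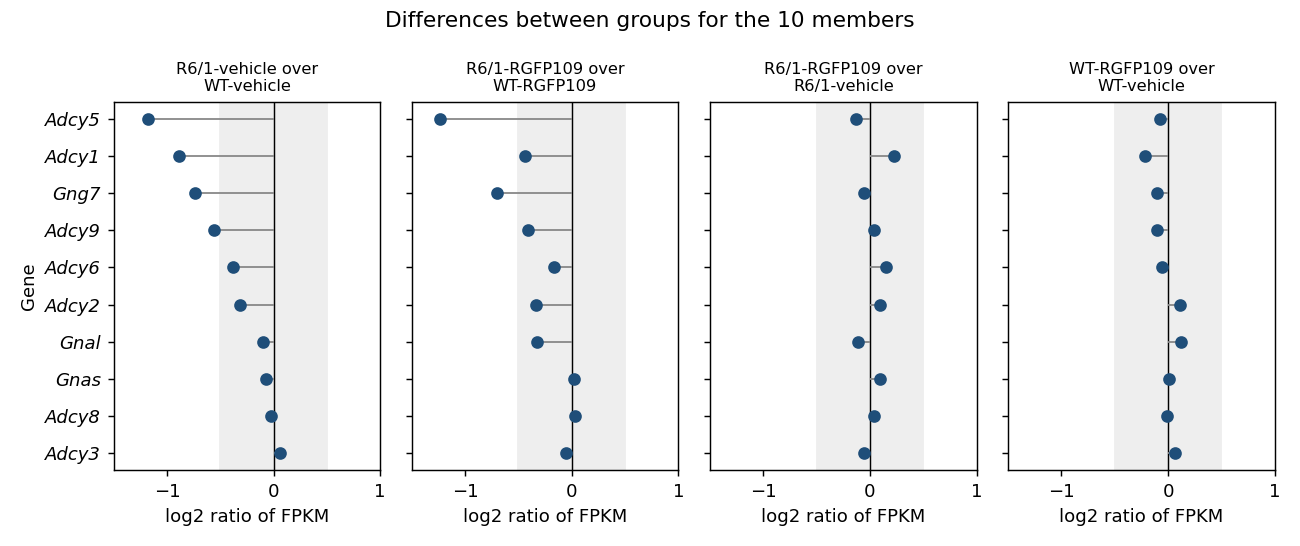
Log2 ratio of FPKM (x axis) for each of the 10 genes (y axis) in 4 comparisons, 1 panel each, with the range within an absolute value of 0.5 shaded and no error bars because there is 1 value per group. The points of Adcy5 and Gng7 lie left of the shaded range in both genotype panels, at -1.18 and -0.74 under vehicle and at -1.24 and -0.70 under RGFP109, and all points of both treatment panels lie inside it.

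The log2 ratio for RGFP109 thus had opposite signs in the genotypes for Adcy1, 0.22 in R6/1 and -0.22 in WT. The difference, R6/1 minus WT, was 0.44, and 980 of 16534 genes, or 5.93%, had a larger one. Gnal had the lowest difference of the 10 genes, -0.23, and Adcy6 was at 0.21. None of the 10 genes passed an absolute difference of 0.5, which 9.03% of all genes did.

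R6/1-RGFP109 mice were last set against WT-vehicle, a comparison that shares a group with each of those above. Again 4 of the 10 genes were lower past the limit, against 13.8% of all 16982 genes, and none was higher past it, against 5.42% of all genes. The log2 ratio was -1.31 for Adcy5, -0.80 for Gng7, -0.66 for Adcy1 and -0.52 for Adcy9, and with a pseudocount of 1 FPKM that of Adcy9 was -0.49, within the limit, so that 3 genes were past it. Adcy2 and Adcy6 were at -0.22, Gnal was at -0.20, Gnas at 0.03, and Adcy3 and Adcy8 at 0.01. Next to the vehicle comparison, Adcy5 and Gng7 stood slightly lower and Adcy1 and Adcy9 slightly higher.

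The levels of the cyclases and of Golf can be read beside those of cell type markers, and in bulk tissue fewer cells of a type and less RNA per cell cannot be told apart. Of the 10 projection neuron markers, 8 were lower in R6/1-vehicle past the limit, against 13.4% of all genes, with Penk at a log2 ratio of -2.01, Adora2a at -1.97, Rgs9 at -1.54 and Pde10a at -1.53. The exceptions, named after their values were seen, were Tac1 at -0.11 and Bcl11b at -0.41. Percentages of WT-vehicle below are ratios of means over tables and so carry the scaling between tables. The summed FPKM of the list was 39.6% of WT-vehicle for R6/1 mice given vehicle, 96.1% for WT mice given RGFP109 and 35.6% for R6/1 mice given RGFP109. Adcy5 took the same order, with 45.2%, 95.2% and 41.4%, as did Gng7 with 61.2%, 93.3% and 58.8%. This order was not particular to projection neurons. The astrocyte, microglia, endothelial and cholinergic interneuron lists, given below, took it too. Gnal, at 95.7%, 109% and 88.9%, also took it, but was higher relative to WT-vehicle than the summed projection neuron list in each of these groups. Sums of a list, here and below, weigh its highest genes most. In WT-vehicle Ppp1r1b made up 1137 of the 3328 FPKM of this sum. Gnal did not stand apart from every marker, as its log2 ratio of -0.10 in the vehicle groups was near the -0.11 of Tac1.

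Adcy1 stood beside the neocortical list in another order, which Adcy2, Adcy6, Adcy9 and the oligodendrocyte list, given below, also took. In R6/1-vehicle 6 of the 8 neocortical markers were lower past the limit, with a log2 ratio of -0.89 for Slc17a7, -0.84 for Nrn1 and -0.75 for Neurod6, and the summed FPKM was 59.6% of WT-vehicle. With RGFP109 it was 95.1% for WT and 69.4% for R6/1, while Adcy1 was at 55.4%, 86.1% and 64.9%. Between R6/1-RGFP109 and R6/1-vehicle, 3 of the 8 markers were higher past the limit, which 2.62% of all genes were, among them Neurod6 at 0.51 and Neurod2 at 0.50, the latter named after its value was seen. The part of cortical tissue in the values of Adcy1 was not tested.

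Other lists differed between the groups as well, and their part in the values of the 10 genes was not tested. Relative to WT-vehicle, the summed oligodendrocyte markers were at 56.0% for R6/1 mice given vehicle, 77.8% for WT mice given RGFP109 and 63.4% for R6/1 mice given it, with 4 of 5 lower past the limit in R6/1-vehicle. The astrocyte markers were at 69.2%, 99.8% and 68.0%, with 1 of 5 past it, and the microglia markers at 84.2%, 99.4% and 82.1%, with none of 5. The endothelial markers were at 72.1%, 83.1% and 64.7%, with 1 of 4 past it, and those of cholinergic interneurons at 51.4%, 116% and 47.2%, with 3 of 4. The choroid plexus markers were at 43.5%, 21.6% and 2.74%, with 6 of 7 lower past the limit in R6/1-vehicle. No marker of these lists was at 0 in any group.

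**Figure D5:**
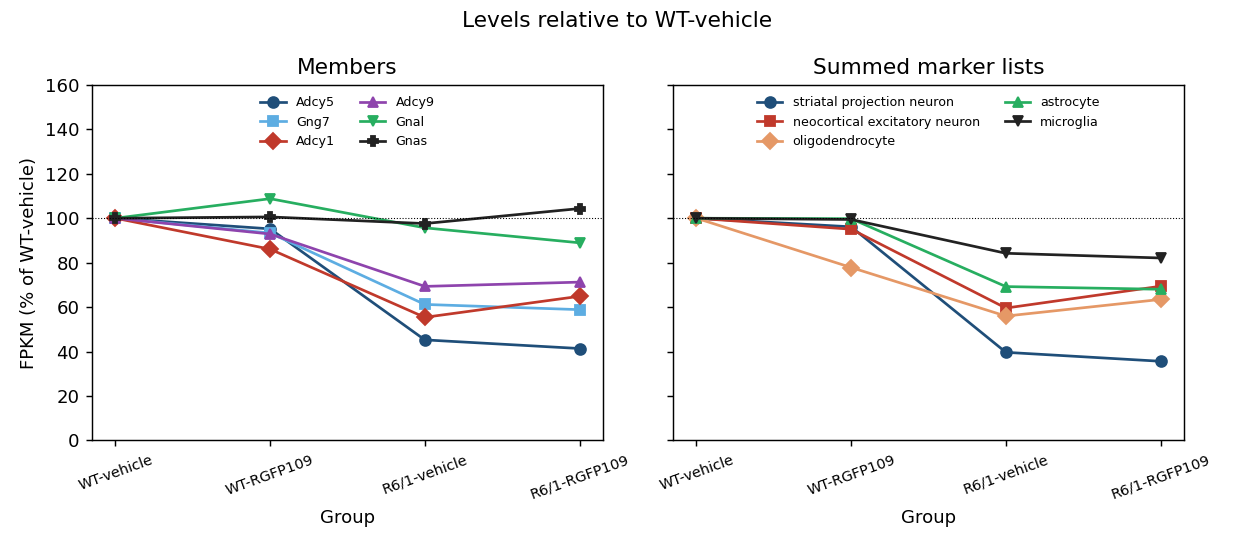
FPKM as a percentage of WT-vehicle (y axis) in the 4 groups (x axis) for 6 of the genes (left) and for the summed markers of 5 cell types (right), with lines that only join the points of a gene or list. In R6/1-vehicle Adcy5 and Gng7 are at 45.2% and 61.2% and the projection neuron list at 39.6%, whereas Gnal and Gnas are at 95.7% and 97.6%.

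The wider pathway was read from 53 further genes in 9 lists, of which 50 could be compared in the vehicle groups. Of these, 12 were lower in R6/1-vehicle past the limit and 1 was higher, where 13.4% and 5.84% of all genes were, and the median log2 ratio was -0.14. Under RGFP109 13 were lower in R6/1, where 11.7% of all genes were, and none was higher. Between RGFP109 and vehicle none of the 50 lay past the limit in R6/1. In WT 1 gene was higher past it, as were 3.19% of all genes: the serotonin receptor Htr4, named after its value was seen, at 1.10 FPKM under vehicle and 1.88 under RGFP109.

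Counts among the partners of the alpha subunits stand beside 19.2% of all genes past the limit in either direction in the vehicle groups. None of 4 G beta subunits lay past it, with log2 ratios from -0.33 to -0.01. Of 9 other gamma subunits, 1 was higher in R6/1-vehicle past the limit, Gng4 at 0.54 with 19.8 and 28.8 FPKM. The lowest of these 9, named after its value was seen, was Gng13 at -0.40, and at -0.52 under RGFP109. The median of the 9 in the vehicle groups was 0.02, and Gng7 was at -0.74. Ric8b, a chaperone that helps Gnas and Gnal products to fold, was at -0.28. None of 5 inhibitory alpha subunits lay past the limit, with a median of 0.04, and of 6 subunits of the Gq and G12 classes only Gna14 did, at -0.54 and a level of 0.168 FPKM in WT-vehicle. The other cyclases Adcy4 and Adcy7 were at 0.436 and 1.69 FPKM in WT-vehicle and within the limit, and Adcy10 was below the filter.

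The receptors that act on the cyclases were counted in lists of their own. Of 5 receptors that raise cyclic AMP, 3 were lower in R6/1-vehicle past the limit, where 13.4% of all genes were: Adora2a at -1.97, Drd5 at -1.03 and Drd1 at -0.99. Of 6 receptors that lower it, 5 were lower past the limit, led by the cannabinoid receptor Cnr1 at -1.31, the dopamine receptor Drd2 at -1.25 and the muscarinic receptor Chrm4 at -1.17. Several of these receptors, Adora2a, Drd1 and Drd2 among them, are also on the list of projection neuron markers, so that these counts are not independent of it. The receptor of this list that was not lower past the limit, named after its value was seen, was the opioid receptor Oprm1 at 0.49, with 1.07 FPKM in WT-vehicle and 1.52 in R6/1-vehicle.

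Downstream of the cyclases, 3 of 12 genes that read or degrade cyclic AMP were lower in R6/1-vehicle past the limit, against 13.4% of all genes. These were the phosphodiesterases Pde10a at -1.53 and Pde1b at -1.10, and the exchange factor Rapgef4 at -0.60. The other 9 were within the limit, and the median of the 12 genes was 0.08. Pde10a, at 139 FPKM in WT-vehicle and 48.1 in R6/1-vehicle, is also a projection neuron marker. Enzymes that make and that degrade cyclic AMP in the striatum, Adcy5 and Pde10a, were both below their WT level in R6/1-vehicle and in R6/1-RGFP109.

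The genes whose pattern over the 4 groups was most like that of Adcy5 were Atp6v1c2, Oprd1 and Pradc1. Likeness was the Euclidean distance of the centred log2 values over the 4 groups, among 13705 genes with a mean of at least 1 FPKM. It was 0.043 for Atp6v1c2, 0.055 for Oprd1 and 0.068 for Pradc1, against a median of 1.23 over all these genes. For Gnal the nearest were Nhsl2 at 0.018, Pantr2 at 0.021 and Ppfia4 at 0.022, against a median of 0.32. With 4 points per gene, such a likeness is a description only.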

How the data were processed

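Libraries of striatal RNA were made with the TruSeq kit and sequenced as single-end reads by the authors, who aligned them to RefSeq transcripts of mm10 with STAR 2.5.0b and computed FPKM with Cufflinks 2.2.1. Cuffdiff then compared each pair of the 4 groups. The 6 deposited tables hold 1 FPKM value per group, normalized within the pair, and columns of the authors' own comparisons (log2 fold change, test statistic, p-value and q-value), which were not used. Counts were not used here. Low FPKM values did not share a common step, since 17 of 1042 low genes, or 1.63%, had the most frequent ratio, so that library depths are unknown and counting intervals cannot be given.

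Groups followed the labels, and the columns were matched to groups by name. Log2 ratios were taken from the table of the pair as log2(FPKM + 0.05), which understates differences of genes with low values, for genes with more than 0.1 FPKM in at least 1 group of the pair. An absolute log2 ratio above 0.5 was the limit for every count, and the share of all genes past it was computed beside it. The calculation was tested on simulated data, with differences planted well past the limit and little noise, on genes above 1 FPKM. That checks the arithmetic only and says nothing about how reliable the calls in these data are. Differences between sequencing pools could not be separated, because the values join all libraries of a group.

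The 10 genes, the pathway lists and the marker lists were chosen with earlier results of these data known. All 10 genes were described, and of each list up to 4 genes with the largest absolute log2 ratios past the limit in the vehicle groups could be named, together with the 3 genes nearest in pattern to Adcy5 and to Gnal. Ric8a was not found under that name, and some listed genes are not reported here by name. Promoters came from RefSeq on GRCm38.p6. Alternatives covered the pseudocount, the filter, the limit, centring on the median of all genes and ratios chained through another group's tables. Python 3.11.15, numpy 2.4.6, pandas 2.3.3 and matplotlib 3.10.9 were used.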

Additional observations from a re-analysis of the deposited data

How the results depend on the processing

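No paired analysis was possible because the tables hold 1 value per group, so that no column carries a replicate number, and for the same reason no library could be left out. Of 350 ratios recomputed, none moved by 0.1 or more, and the largest move was 0.0394, with a pseudocount of 1 FPKM. These include 50 without the filter on low values and 50 with a mean of at least 1 FPKM. A filter only sets which genes enter, so that those ratios could not move. Centring shifts every ratio of a comparison by the same amount. Ratios chained through another group's tables moved by at most 0.0030, and centring on the median of all genes moved them by at most 0.0192. No ratio past the limit changed its sign. The share of all genes past the limit in either direction depended on low values. With a pseudocount of 1 FPKM it was 9.26% in the vehicle genotype comparison, 7.68% under RGFP109, 2.2% for RGFP109 in R6/1, 2.60% in WT and 9.11% between R6/1-RGFP109 and WT-vehicle, and with a mean of at least 1 FPKM it was 3.00% for RGFP109 in R6/1 and 3.90% in WT. The pseudocount of 1 FPKM also left 3 of the 10 genes past the limit between R6/1-RGFP109 and WT-vehicle in place of 4, with Adcy9 at -0.49. With an absolute log2 ratio above 1, 1 gene, Adcy5, was past it in the vehicle genotype comparison, 1 under RGFP109 and 1 between R6/1-RGFP109 and WT-vehicle, where 4.45%, 3.7% and 4.4% of all genes were lower past it. With a ratio above 1.2 or below its inverse, 6 genes were past it in the genotype comparison under RGFP109, and the shares of all genes were 41.6% under vehicle and 36.8% under RGFP109. The depth behind each value is unknown.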
